A study of Mus musculus with 18 samples.

Results

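A total of 1875 genomic sites carried a RAD21 peak in all 3 replicates of mouse splenic B cells stimulated for 96 h, and these sites are described here. They were chosen by position alone: peaks from the 3 replicate lists sharing 1 bp or more were joined, and a joined site was kept if each list contributed a peak. The 3 lists together held 9472 joined sites, of which 2712 had a peak in 2 replicates and 4885 in 1, so that 19.8% were found in all 3. The series as a whole, with 3 time points of 3 replicates each, held 15225 sites.

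B cells came from the spleens of wild-type C57BL/6 mice (C57BL/6J in the study's methods) of 8 to 10 weeks, were purified on columns and were cultured with bacterial lipopolysaccharide (LPS) at 50 µg/ml and interleukin 4 (IL-4) at 2 ng/ml, a combination that induces class switching to IgG1. After 96 h the IgG1-positive cells were enriched by negative selection, as the study states, and each replicate pooled the cells of 12 mice. RAD21 was immunoprecipitated with antibody ab992, and input DNA of the same time point served as control. The samples are therefore bulk populations enriched for switched cells, in which a site used by fewer cells and a site occupied less often in each cell cannot be told apart. Peak lists hold no expression, so the labelled cell type could not be checked against markers.

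RAD21 is the kleisin subunit that closes the cohesin ring, the complex that holds sister chromatids together and that extrudes loops of chromatin in interphase. CTCF, a zinc-finger protein that reads a long and directional DNA motif, halts cohesin, and loops are typically held between a pair of CTCF motifs that point towards each other. In B cells, cohesin and CTCF fold the antigen receptor loci and bring enhancers to their promoters.

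The sequence shared by the sites is shown first because most of the description rests on it. A motif of 20 bases was learned from 1058 of the sites on 10 chromosomes, and its consensus is given with 5 of the 10 highest-scoring sites, picked to show how the matches vary, in mm9 coordinates and 5′ to 3′ on the strand of the motif. Capitals mark the 8 positions that held at least 1 bit of information in the learned motif. The sites were chr3:121010682-121010701 (forward strand, in intron 2 of Alg14), chr1:95975793-95975812 (reverse, upstream of Pdcd1), chr6:113588364-113588383 (forward, at the start of Irak2), chr1:183819084-183819103 (forward, near Gm5533) and chr4:40997880-40997899 (forward, near Aqp7).
consensus: tggCCaccAGGgGGCgccag
Alg14: ctgCCaccAGGtGGCagcat
Pdcd1: ctgCCactGGGtGGCaccgt
Irak2: atgCCactGGGaGGCgctcg
Gm5533: tagCCagcAGAgGGCgctgc
Aqp7: tgtCCtctAGAgGGCgccag
The consensus has the core letters of the CTCF motif as known from textbooks, and a match is called CTCF-like below. CTCF binding itself was not analysed here.

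Most reproduced sites held a CTCF-like match. Outside the chromosomes used for learning, 768 of 817 sites (94.0%, exact binomial 95% interval 92.1 to 95.5) held a match within 100 bp of their centre, where a match needed 10.2 log2 odds or more, which 5% of windows 1 kb away on the learning chromosomes reached. On the other chromosomes 4.96% of such windows passed. At a stricter level of 16.2 log2 odds, 561 sites (68.7%) still matched. The match lay close to the middle of the peaks, with a median offset of 18 bp from the centre of the site and 97.5% of matches within 50 bp. All intervals given here cover counting error only.

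The presence of a match did not follow the rank of the peak. Scores were compared as percentiles, the position of a peak's score within its own replicate's list, and each site was given its median percentile over the 3 replicates. In 4 groups of the held-out sites ordered by score, from lowest to highest, 94.7%, 94.2%, 92.1% and 95% had a match. Spearman's rho between median percentile and the log2 odds of the best match was -0.01 over 817 sites, which share the same libraries. Sites found in 2 replicates had a match in 92.5% (1120 of 1211, interval 90.9 to 93.9), and sites found in 1 replicate in 87.4% (1966 of 2249, interval 86.0 to 88.8).

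Within each replicate, peaks at reproduced sites were set against the other peaks of the same list. On the held-out chromosomes, a match was held by 93.9% of peaks at reproduced sites and 81.8% of other peaks in replicate 1, by 94.0% and 92.9% in replicate 2, and by 93.4% and 89.8% in replicate 3. The difference was positive in 3 of 3 replicates, with a mean of 5.59 percentage points ± 5.77 (SD, n = 3), and it was 12.1 points in replicate 1. A two-sided exact sign-flip permutation test over the 3 differences gave p = 0.25, the smallest value that 3 replicates allow. The reproduced sites are the same in each list, so the 3 differences are not independent and the test cannot decide. Without replicate 1 the mean difference was 2.34 points.

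Matches were split about evenly between the strands of the genome, but not between those of the surrounding gene. Of 1764 sites with a match, 49.4% carried it on the forward strand (interval 47.0 to 51.7). In introns, 265 of 631 matches (42.0%, interval 38.1 to 46.0) lay on the same strand as the gene, so that the match more often pointed against transcription. Within 3 kb upstream of a gene start, 81 of 165 matches (49.1%, interval 41.2 to 57.0) had the strand of the gene.

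Some matched sequences recurred. The 20 bases of the match occurred once in the mm9 genome, counting both strands, at 1535 of the 1764 sites (87.0%), 2 to 10 times at 193 sites and over 100 times at 14 sites. The sequences that most often recurred among the sites are shown because they place identical motifs in different genes.
shared by 5 sites: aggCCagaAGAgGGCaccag
shared by 4 sites: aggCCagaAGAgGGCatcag
shared by 3 sites on chromosome 17: cagCCagcAGGgGGCagcag
shared by 3 sites on chromosome 1: cgtCCagcAGAgGGAagcat
The first occurred 464 times in the genome and lay in introns of Gtf2ird2, Ttc26, Mkl1 and Dixdc1 and 20.3 kb from the start of Cenpf. The second occurred 1156 times and lay in introns of Mgat5, Bub1b and Hip1r and near Shq1. Median percentiles at the first sequence were 10.9 at Mkl1, 15.2 at Ttc26, 38.1 in Dixdc1, 41.4 near Cenpf and 77.6 at Gtf2ird2. Those at the second were 26.7 near Shq1, 44.1 at Hip1r, 58.2 at Bub1b and 69.2 at Mgat5. Identical 20-base matches thus differed in rank, and all of these except Gtf2ird2 were below 71.9, the median of all reproduced sites. The third, with 5 copies, lay in introns of Gm2792, Gm2833 and Sytl3, at median percentiles of 58.8 to 83.1. The fourth, with 4 copies, lay at a pair of sites around C130026I21Rik and in intron 9 of Sp110, at 71.7 to 97.7. Reads from near-identical copies can be assigned to either copy, and how the alignment treated them is not given in the sources used here.

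The 111 sites without a match (5.92% of 1875) differed from the others in where they lay and what sequence they held. Gene starts were more frequent, with 18 of 111 (16.2%, interval 9.90 to 24.4) within 1 kb upstream of a start against 82 of 1764 (4.65%, interval 3.71 to 5.74) of the sites with a match. Tandem repeats (units of 1 to 4 bases repeated over 20 bases or more) were also more frequent, in 22 of 111 (19.8%, interval 12.9 to 28.5) against 26 of 1764 (1.47%, interval 0.965 to 2.15). At 1 kb from the 1875 sites the share was 7.79%, so sites with a match lay below it and those without lay above it. The ranks were alike in the middle, with median percentiles of 71.3 without and 71.9 with a match. These counts include the chromosomes used for learning.

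The replicates contributed lists of very different length. Replicate 1 had 2807 peaks, replicate 2 had 4552 and replicate 3 had 8579, and the reproduced sites took up 66.8%, 41.2% and 21.9% of them. The shortest list therefore set most of the limit: of the 2712 sites found in 2 replicates, 2042 lacked a peak in replicate 1, 577 in replicate 2 and 93 in replicate 3. Requiring only replicates 2 and 3 gave 3918 sites. The lists do not give the reads behind each peak.

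High-scoring peaks were more often at a reproduced site than low-scoring ones. Of the reproduced sites, 775 were above the 50th percentile in all 3 lists and 84 below it in all 3. In the top 10% of scores, 92.6% of the peaks of replicate 1, 82.9% of replicate 2 and 71.7% of replicate 3 lay at a reproduced site, and in the bottom 10% 54.1%, 22.9% and 3.83% did. The highest-scoring peak that was not reproduced ranked 42 in replicate 1 (near Tmem135), 33 in replicate 2 (near Cmtm7) and 29 in replicate 3 (near Idh2), and each was present in 2 replicates. Since a site needs a peak in every list, high scores are partly built into the choice and are given as a description only.

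**Figure D1:**
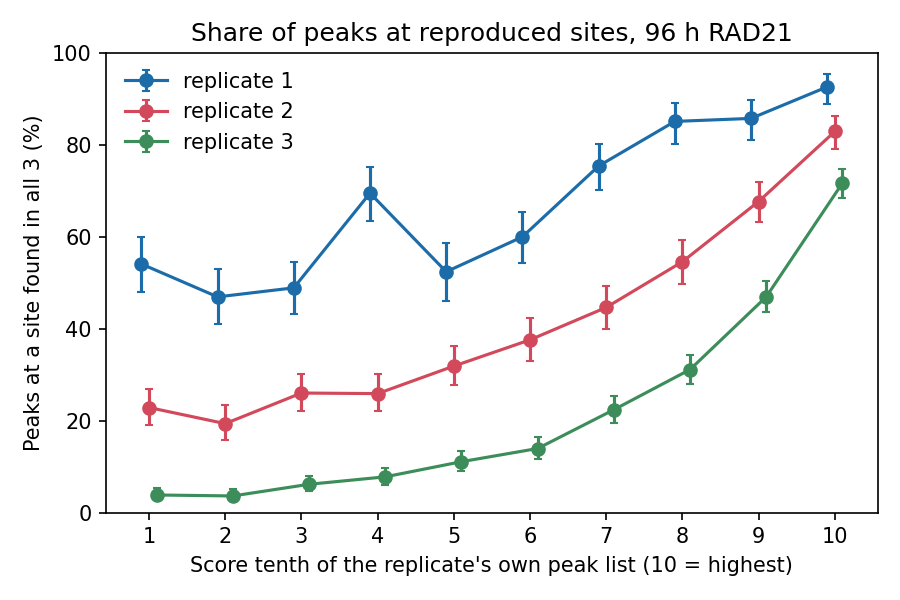
Share of peaks lying at a site found in all 3 replicates (vertical axis, percent) by score group within each replicate's own list (horizontal axis, 10 groups, 10 highest); points are the shares and bars exact binomial 95% intervals. The share reached 92.6%, 82.9% and 71.7% in the highest group of replicates 1, 2 and 3, and the lowest group of replicate 3 stood at 3.83%.

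The order of the sites varied between replicates. The score had a median of 10.95 at the reproduced sites in replicate 1, 14.96 in replicate 2 and 20.75 in replicate 3, against 9.02, 10.63 and 11.21 at the other peaks of the same lists. Spearman's rho of the scores was 0.293 between replicates 1 and 2, 0.336 between 1 and 3 and 0.435 between 2 and 3, over 1875 sites. A site's percentiles spanned 37.1 points over the 3 replicates at the median and over 50 points at 621 sites. Only 95 sites were in the top 10% of all 3 lists, and 16 were among the 100 highest of each. The statistic behind the score is not named in the sources used here, so scores of different lists were not compared directly.

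Peaks of a site lay close together, which the rule of overlap partly fixes. Peak centres of a pair of replicates lay 18.5 to 19.5 bp apart at the median, and 90.03% to 93.9% were within 50 bp. All 1875 sites had at least 1 base common to the 3 peaks, with a median of 162 bp in common, and all overlapped a peak of the list called on the merged reads. Just inside the rule, the smallest overlaps between peaks of a pair of replicates were 49 bp near Oit1, 55 bp at Tmem29 and 57 bp near 4932438A13Rik. Just outside it, the third peak was missed by 162 bp near Muc13, 213 bp near Malt1 and 225 bp at Hook2.

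The 10 highest sites included some near genes of immune signalling. The first lay on chromosome 4, 0.577 kb upstream of 2610002J02Rik, and scored 32.69, 58.7 and 82.12 in replicates 1, 2 and 3, the highest score of all in replicate 2. The second lay 26.7 kb upstream of Pdcd1, which encodes the inhibitory receptor PD-1, with scores of 35.46, 57.2 and 64.91. Both were above the 99th percentile of every list.

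The site of Irak2, a kinase that acts downstream of Toll-like and IL-1 receptors, lay 38 bp upstream of the gene start on chromosome 6 and scored 21.47, 49.27 and 59.29. The site in intron 2 of Alg14, which takes part in building N-linked glycans, scored 32.84, 52.8 and 61.52. These were high in all 3 lists, as was the site 2.73 kb upstream of Aqp7, a glycerol channel, with 37.18, 41.51 and 46.73. The other 5 were near Rassf8, Wsb1, Gm5533, Hif1an and Sv2b. The site near Hif1an, the hydroxylase that represses HIF1, scored 82.18 in replicate 3, the highest score of that list, and 20.02 in replicate 1. The site near Gm5533 had the widest spread of these, at percentile 85.9 in replicate 1 and 99.9 and 99.8 in replicates 2 and 3. All 10 had a match, although 4 of them (2610002J02Rik, Irak2, Hif1an and Sv2b) passed only the lower level.

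Peaks were narrow. At the reproduced sites they had a median width of 186 bp in replicate 1, 208 bp in replicate 2 and 256 bp in replicate 3, against 159, 174 and 201 bp at the other peaks. Only 36 sites had a median width of at least 300 bp, and 6 of at least 400 bp. Width followed score within a replicate, with rho of 0.550, 0.638 and 0.583, and median width followed median percentile with rho 0.647 over 1875 sites.

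The 5 widest sites did not follow that relation, as their median percentiles lay between 55.0 and 75.6, and 4 of the 6 sites of at least 400 bp had no match around the centre. The widest, 48.7 kb from the start of Scel on chromosome 14, had widths of 587, 629 and 599 bp in the 3 replicates, held a tandem repeat and had no match anywhere along its 629 bp. The next widest were a pair in intron 3 of Hhat, the acyltransferase of Hedgehog proteins, 759 bp apart on chromosome 1, with median widths of 511 and 492 bp, no match in either and a tandem repeat in the first. Their percentiles went down from the shortest list to the longest, at 82.0, 58.8 and 17.8 for the first and 96.6, 75.6 and 70.0 for the second, whereas the median percentile of all sites went up, at 60.5, 69.3 and 82.1. The fourth, in intron 4 of D6Mm5e near Dok1, was 210 bp wide in replicate 1 and 463 and 496 bp in the others, with 1 match near its edge.

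The fifth widest site lay beyond the 3′ end of the annotated segments of the immunoglobulin heavy chain locus. It spanned chr12:114460307-114460838, 36.4 kb from the start of Tmem121, and its 532 bp held 2 matches of the stricter level, with none within 100 bp of the centre. Its widths were 285, 448 and 507 bp and its scores 17.39, 7.99 and 16.32. A second reproduced site, chr12:114458774-114459074, lay beside it with scores of 15.45, 22.07 and 37.54, and the pair lay 84.1 and 85.7 kb outside the annotated segments of Igh. Within the 2694 kb spanned by the 39 annotated Igh segments no site was found in any replicate, which says only that no peak passed the caller's threshold there. That span starts at chr12:114544600 and leaves out part of the locus, since the study places the switch region Sγ2a outside it, on the side of the pair. The study also reports cohesin sites in the 3′ regulatory region of Igh, and whether the pair belongs to them was not tested. Sites of 1 replicate flanked the pair at 4 positions within 10 kb.

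The light chain loci also carried reproduced sites. At the kappa locus Igk, a pair of reproduced sites lay 25.9 and 42.2 kb outside the 103 annotated segments. Their scores were 11.77, 21.47 and 49.15 for the first and 19.3, 12.68 and 23.06 for the second. The 7 sites within the segments were each found in 1 or 2 replicates. Over all chromosomes only 19.8% of sites were found in all 3, so most sites anywhere were of that kind. At the lambda locus Igl, a low-ranked site inside the locus was reproduced, with scores of 6.95, 7.53 and 12.68. These loci were chosen after their values were seen, and the segment names were those annotated in GENCODE release M1.

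Relative to the genome, reproduced sites were placed towards gene starts and ends. Features were those of protein-coding transcripts in GENCODE M1 (mm9), and a site was assigned by its centre. The first kb upstream of a start held 100 sites (5.33%, interval 4.36 to 6.45) and 1.24% of the sequenced genome, a ratio of 4.32. The first 3 kb held 199 sites (10.6%, interval 9.25 to 12.1), 3.09 times the genome's share. The 3 kb downstream of genes held 182 sites (9.71%, interval 8.40 to 11.1), 2.71 times the share. Untranslated exons were also above the genome, with 13 sites in 5′UTRs (2.63 times) and 39 in 3′UTRs (1.98 times).

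Most sites nevertheless lay in introns or between genes. Introns held 681 sites (36.3%, interval 34.1 to 38.5), close to their 35.6% of the genome. Intergenic sequence held 875 (46.7%, interval 44.4 to 49.0), below its 57.8%. Coding exons held 24 (1.28%, interval 0.822 to 1.90), with the genome's 1.40% inside the interval. The share in coding exons was 1.55% at sites of 2 replicates and 2.17% (interval 1.78 to 2.62) at sites of 1. Promoter shares changed little with the number of replicates, at 10.6%, 9.99% and 10.3% within 3 kb for sites of 3, 2 and 1 replicates.

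Within each replicate, 10.7% of peaks at reproduced sites lay within 3 kb upstream of a start against 8.69% of other peaks in replicate 1, 10.7% against 10.2% in replicate 2 and 10.6% against 10.4% in replicate 3. The mean difference was 0.883 percentage points ± 0.958 (SD, n = 3), and the two-sided exact sign-flip permutation test gave p = 0.25, the smallest possible. The mean difference was smaller than the spread between replicates, and the 3 differences again share the same reproduced sites. Without replicate 1 the mean difference was 0.336 points.

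Close to gene starts the sites were strongly one-sided. The nearest start lay at a median distance of 17.6 kb, and 80.7% of sites had one within 50 kb, compared with 47.8% of sequenced bases. Of the 383 sites within 5 kb of a start, 245 (64.0%) were upstream of it. The 500 bp directly upstream held 64 sites, the first 500 bp of the transcript 18 and the next 500 bp 3. Beyond 1 kb into the gene the count per 500 bp stayed between 11 and 18.

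**Figure D2:**
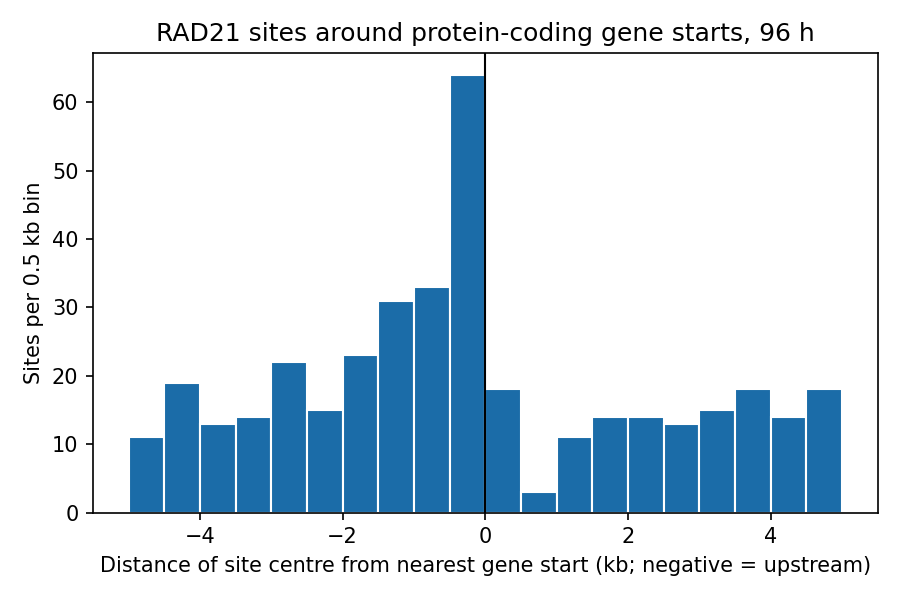
Number of reproduced sites in bins of 0.5 kb (vertical axis) by distance of the site's centre from the nearest protein-coding gene start (horizontal axis, kb, negative upstream). The tallest bar, 64 sites, is directly upstream of the start, and the lowest, 3 sites, lies 0.5 to 1 kb inside the gene.

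The highest-ranked promoter sites lay at genes of several functions, and 6 of the 10 had no match at the stricter level. After 2610002J02Rik and Irak2 came Spata20, with a site 0.877 kb upstream that scored 41.53, 27.85 and 48.34, the highest score of all in replicate 1, and that had no match. The site 25 bp upstream of a start of Ddah2, which degrades methylated arginines, scored 25.96, 21.47 and 40.89 and had no match either. Others were at Slc39a13, a zinc transporter, Cirbp, a cold-inducible RNA-binding protein, Eif2c2, which encodes Argonaute 2, Ppdpf, and Atp6v1g2, a subunit of the vacuolar proton pump.

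The sites of Slc39a13 and Cirbp are shown as promoter matches that passed the stricter level, and they lay at chr2:90910750-90910769 (forward strand) and chr10:79627888-79627907 (reverse).
Slc39a13: tggCCacaCGGgGGCgcgca
Cirbp: tggCCactAGAcGTCgccat
The Cirbp site ranked low in replicate 1, where it scored 6.68 (percentile 8.50), but scored 31.37 and 40.04 in replicates 2 and 3. Of the held-out promoter sites within 1 kb upstream of a start, 31 of 37 (83.8%, interval 68.0 to 93.8) had a match, compared with 283 of 301 in introns (94.0%, interval 90.7 to 96.4) and 361 of 382 between genes (94.5%, interval 91.7 to 96.6). The promoter interval overlaps the others.

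Along the chromosomes the sites were spaced unevenly. The median distance between neighbouring sites was 460 kb (interval 418 to 504, over 1854 pairs) and the mean 1334 kb. An even spread would put them 1365 kb apart, a value to set against the mean. Random placement also gives a median below the mean, and it was not compared. The lower quartile was 159 kb, and 31.3% of the distances were above 1 Mb. Neighbours within 10 kb numbered 52 pairs, those within 25 kb 103 pairs (5.56%), and 31 gaps were longer than 10 Mb. With replicate 1 left out of the rule, the median spacing was 221 kb.

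**Figure D3:**
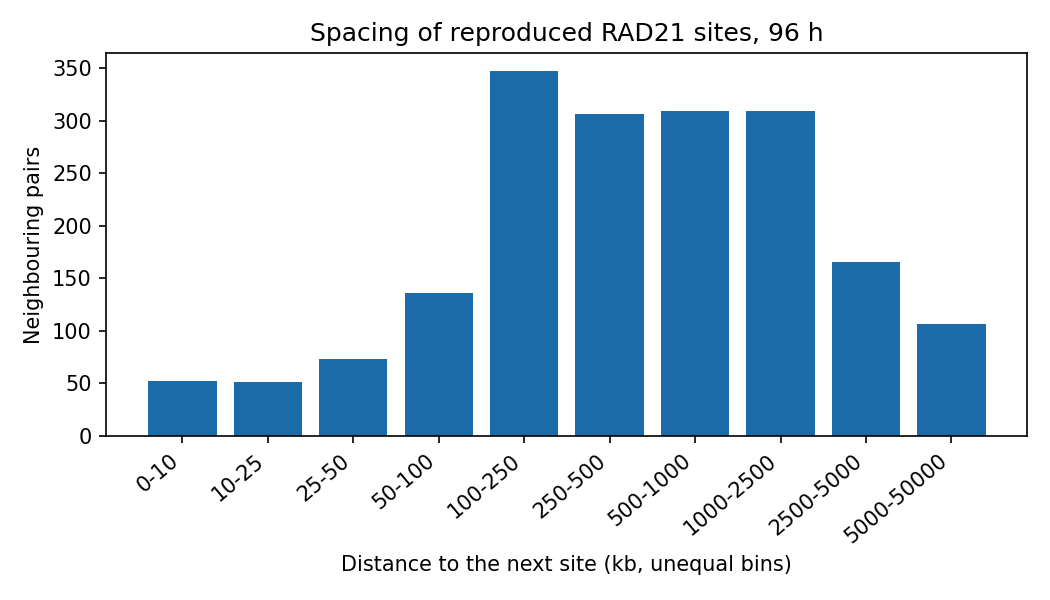
Number of neighbouring pairs of reproduced sites (vertical axis) by the distance between their centres (horizontal axis, kb, in bins of unequal width). The bin of 100 to 250 kb held the most pairs, 347, and 106 pairs were more than 5000 kb apart.

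Clusters were small. With neighbours joined up to 25 kb, 201 sites (10.7%, interval 9.36 to 12.2) fell into 98 clusters, of which 93 were pairs and 5 were groups of 3. With replicate 1 left out of the rule, 19.3% of the sites were clustered. The tightest group of 3 spanned 5.15 kb on chromosome 8 beyond Cox4i1, a subunit of cytochrome c oxidase, and all its matches pointed the same way. A group upstream of Hjurp, the chaperone of the centromeric histone, spanned 12.4 kb, and its middle site scored 23.51, 40.04 and 38.85 whereas its outer sites had median percentiles of 18.2 and 23.0. The other groups were at Amz2 on chromosome 11, at Fgd2 on chromosome 17, and on chromosome 8 from the 3′UTR of Rnaseh2a past Junb, an AP-1 subunit, to Hook2.

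The closest neighbours were a pair 613 bp apart upstream of Rhof, a small GTPase, with matches pointing away from each other. The next were pairs of 680 bp near Plxnc1, 745 bp near Irg1, 759 bp in Hhat and 915 bp near Stox2. The first pair illustrates how ranks differ within a cluster, with scores of 6.95, 18.8 and 10.84 at one site and 21.84, 17.39 and 19.46 at the other. Among autosomes, the longest stretch without a reproduced site was 24.1 Mb on chromosome 4 between Tnc and Mllt3, which held 54 gene starts and 22 sites found in fewer than 3 replicates. A stretch of 17.5 Mb on chromosome 16 lay between Cpox and Samsn1.

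The relative direction of neighbouring motifs depended on the distance between the sites. A pair was called convergent when the left match was on the forward strand and the right on the reverse strand, so that they point towards each other, divergent in the opposite case and tandem otherwise. Over all 1645 neighbouring pairs with matches, 26.7% were convergent (interval 24.6 to 28.9), 27.3% divergent and 46.0% tandem. Within 25 kb, however, only 6 of 95 pairs were convergent (6.32%, interval 2.35 to 13.2), and 44.2% were divergent. At 100 to 500 kb the order was turned round, with 34.7% convergent (interval 30.8 to 38.7) and 21.7% divergent, over 591 pairs. Above 1 Mb the shares were 22.0% and 27.5% over 491 pairs.

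The depletion at short range was found for other choices of sites as well, which overlap the reproduced sites and are not independent of them. At the stricter level, 2 of 49 pairs within 25 kb (4.08%) and 33.4% of pairs at 100 to 500 kb were convergent. When 1 replicate was left out of the rule in turn, the short-range share was 3.64%, 7.69% and 5.77% without replicates 1, 2 and 3, and the share at 100 to 500 kb was 34.9%, 33.9% and 34.1%. Over all 9472 sites, which include the reproduced ones, the shares were 7.27% of 1541 pairs and 35.3% of 2966 pairs. Above 1 Mb the order did depend on the choice. Over all sites 30.2% of 368 such pairs were convergent and 20.1% divergent, the reverse of the reproduced sites, whose order the other choices kept. Neighbouring pairs share sites, so the pairs are not independent and the intervals understate their error.

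**Figure D4:**
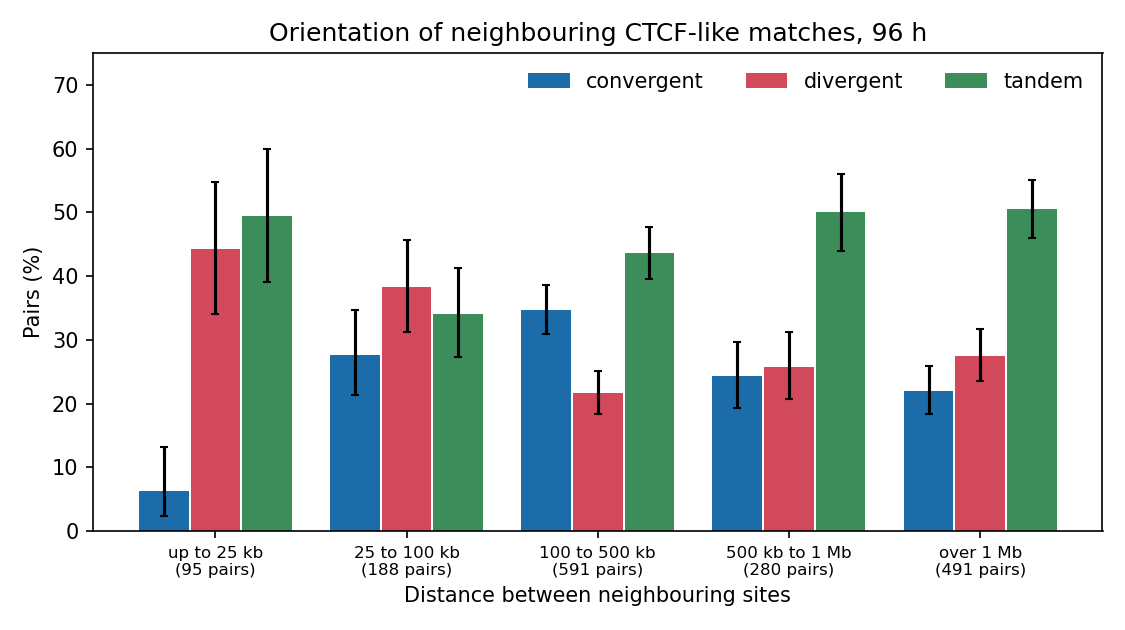
Share of neighbouring pairs of reproduced sites (vertical axis, percent) whose CTCF-like matches are convergent, divergent or tandem, by distance between the sites (horizontal axis); bars are shares and error bars exact binomial 95% intervals. Convergent pairs made up 6.32% within 25 kb and 34.7% at 100 to 500 kb.

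Site density followed gene density on the autosomes. Overall there were 0.733 reproduced sites per sequenced Mb, from 0.473 on chromosome 3 to 1.42 on chromosome 11. Over the 19 autosomes, rho between sites and gene starts per Mb was 0.837, a description of chromosomes that share the same libraries. Chromosome 7 stood below this relation, with 14.6 gene starts and 0.874 sites per Mb. In 4 groups of 5-Mb bins, from the lowest to the highest gene density, there were 0.221, 0.445, 0.869 and 1.40 sites per Mb. The densest bin, chr11:115000001-120000000, held 22 sites, and 96 of 507 bins held none.

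The X chromosome carried only 10 reproduced sites, 0.0617 per Mb. It also held 3 of the 5 longest gaps, of 48.3, 45.0 and 21.2 Mb. Of its 145 sites in any replicate, 6.90% were reproduced, and the autosomes ranged from 15.1% to 22.9%. Strong CTCF-like matches in the sequence, of 18.2 log2 odds or more, were also less often in a reproduced site. On X 4 of 835 (0.479%) lay in one, against 948 of 23212 on the autosomes (4.08%, from 2.94% to 5.24% per chromosome). The gap was smaller for sites of any replicate, which held 65 of the 835 on X (7.78%) and 17.9% over all chromosomes. The sex of the mice is not given in the sources used here, and its part in the count was not tested.

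**Figure D5:**
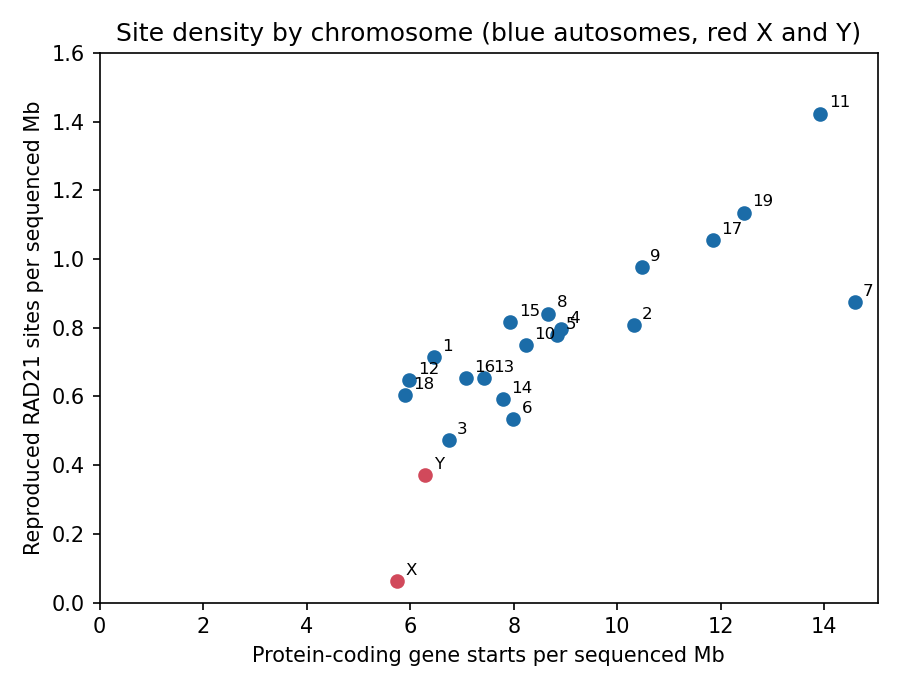
Reproduced sites per sequenced Mb (vertical axis) against protein-coding gene starts per sequenced Mb (horizontal axis) for each chromosome, labelled by number; autosomes in blue, X and Y in red. Autosomes range from 0.473 to 1.42 sites per Mb, and X lies at 0.0617.

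The X-linked sites that were reproduced ranked low to high. The site 12.8 kb upstream of Tlr8, a receptor of single-stranded RNA, scored 21.84, 10.63 and 25.18, and the one near Tmsb4x, which encodes an actin-binding thymosin, scored 15.92, 17.62 and 24.82. The site 218 bp upstream of Tsc22d3, a glucocorticoid-induced leucine zipper protein, scored 8.17, 9.33 and 7.88. The remaining 7 had median percentiles of 8.91 to 58.8. A single site on Y, whose sequenced part is 2.70 Mb, scored 11.09, 10.39 and 17.71.

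Genes reached by a reproduced site were a minority. Of 22365 protein-coding genes, 718 (3.21%) held a site in the gene, and 1613 had one in the gene or within 10 kb, which is 7.21% of all. Without replicate 1 in the rule, 3110 genes had one within that distance. The share rose with gene length, from 3.31% in the shortest of 4 length groups through 6.30% and 7.99% to 11.3% in the longest. Only 39 genes held 2 or more sites. The counts of 15 at Gm20388 and 4 at Fgfr2 rest on gene models of 4435 and 3009 kb compared with a median gene length of 15.1 kb. Among models of ordinary length, 2 sites each lay in Scd2, a stearoyl-CoA desaturase, in Cdk18, Amz2, Fbxl18, Ralgds, Gm2833 and Bub1b, a spindle checkpoint kinase, and in Tnfrsf8, which encodes CD30.

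Gene lists for the biology of these cells were read against that background of 7.21%. Genes of class switching and break repair had no reproduced site within 10 kb, in 0 of 22 genes, which include Ung, a uracil glycosylase, and Trp53bp1 and Atm, which act in the response to breaks. Sites found in any replicate were within 10 kb of 6 of these 22, and of 29.2% of all genes. A reproduced site was within 50 kb of 1, and of 17.7% of all genes. The median length of these genes was 41.7 kb, compared with 15.1 kb over all genes.

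B cell transcription factors had the most, with 6 of 16 genes, and a median length of 81.3 kb. Upstream of Foxo1 by 5.73 kb lay a site with scores of 16.13, 27.62 and 35.84. Ebf1, an early B lineage factor, had a site at each end, 6.24 kb upstream of its start (12.52, 53.56 and 23.27) and past its end (19.3, 26.27 and 36.22), and the matches of the pair pointed towards each other. The site in intron 5 of Pou2f2, which encodes the octamer factor OCT2, scored 18.82, 24.21 and 52.68. Bach2, which holds back plasma cell fate, had a site in intron 5 (11.34, 14.96 and 16.22) and one past its end (13.12, 11.34 and 17.5).

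Bcl6, the germinal centre repressor, had a site 2.50 kb upstream, scoring 10.19, 11.96 and 20.22. The site next to Spib lay in intron 4 of its neighbour Mybpc2 and scored 8, 23.71 and 29.61. Pax5, Tcf3, Ikzf1, Ikzf3, Irf8, Ets1 and the other 4 of the list had none within 10 kb, and a reproduced site lay within 50 kb of 11 of the 16, compared with 17.7% of all genes. For Pax5, the study describes cohesin binding within the gene after 96 h, from its own binding profiles and not by the rule used here. With sites of any replicate, 10 of the 16 genes had one within 10 kb, compared with 29.2% of all genes.

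The IL-4 list had 4 of 15 genes. Cish, a feedback inhibitor that STAT factors induce, had a pair of sites 4.95 and 1.58 kb upstream, scoring 27.42, 27.86 and 38.03 and 20.02, 25.61 and 37.36. These were high in all 3 lists, and their matches diverged. Sites at Bcl2l1, which encodes the survival factor BCL-XL, 24 bp upstream (9.27, 10.25 and 35.39), and at Stat6, the transcription factor of IL-4 signalling, 1.02 kb upstream (6.95, 9.08 and 20.68), were high only in replicate 3. The site upstream of Pik3cd scored 5.08, 24.21 and 18.8. Il4ra, Jak1, Jak3 and Socs1 were among those without. With sites of any replicate, 12 of the 15 genes had one within 10 kb, compared with 29.2% of all genes.

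The LPS and NF-κB list had 3 of 24 genes, Irak2, Nfkbia and Tnfaip3. Nfkbia, which encodes the inhibitor IκBα, had a site 6.61 kb upstream (14.96, 12.19 and 21.89), and Tnfaip3, which encodes the deubiquitinase A20, had one in intron 1, 177 bp from the gene start (14.89, 12.19 and 21.47). The other 21 genes of the list had none, among them the receptors Tlr4 and Cd14, the factors Rel and Rela, and Nfkbie and Nfkbiz, which encode other members of the IκB family. Of the plasma cell and secretion list, 2 of 19 had a site, Zbtb20 in intron 9 (11.89, 7.53 and 16.22) and Ern1, the unfolded protein sensor IRE1, 3.77 kb upstream (10.75, 11.63 and 15.84). Prdm1, Xbp1 and Irf4 had none within 10 kb. For Prdm1, the study describes cohesin binding in intron 2 after 96 h, from its own binding profiles. The rule used here needs a peak in each of the 3 lists, so a gene without a reproduced site may still be bound by RAD21. With sites of any replicate, 8 of the 24 LPS and NF-κB genes and 9 of the 19 plasma cell genes had one within 10 kb. The share over all genes was 29.2%.

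Of the genes of cohesin and CTCF, 1 of 15 had a site, Ctcf itself, where it lay past the end of the gene and scored 16.22, 13.11 and 14.96. Rad21, Smc1a, Smc3, Stag1, Stag2 and Nipbl had none. With sites of any replicate, 5 of the 15 genes had one within 10 kb, compared with 29.2% of all genes. The shares of the lists, apart from class switching, ran from 6.67% to 37.5% over lists of 15 to 24 genes, and they are counts without a test, since the lists were chosen with earlier results of these data known.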

How the data were processed

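Peak lists of 3 RAD21 ChIP-seq replicates at 96 h were analysed, with the list from merged reads as a check. According to the methods and the submitters' notes, the authors aligned reads to mm9 with Bowtie2, drew equal numbers of unique positions, and ran MACS 2 on each sample with input as control (FDR 0.05). The deposited score of each peak (statistic not named) ordered the peaks of each list and had no other use; read counts were not used here. Other time points served only for the count of sites in the series.

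Overlapping peaks were merged; features came from GENCODE release M1 (the study used RefSeq), and motif matches from the mm9 sequence. Of the gene lists, 2 genes (Mzb1 and Gfi1) were not found under these names. Python 3.11.15, numpy 2.4.6, scipy 1.17.1, numba 0.67.0 and matplotlib 3.10.9 were used. Only the functions for joining peaks, for learning and finding the motif and for the sign-flip test were tested on simulated data.

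The named sites were the 10 highest by median percentile, the 5 widest, the 5 largest clusters, the 5 closest pairs and longest gaps, the 10 highest promoter sites, the 10 genes with most sites, up to 4 genes of each list with a site, those just inside and outside the rule, and the sites at recurring matches, on X and at immunoglobulin loci. The last 3 kinds, and the genes named beyond 4 of a list, were chosen after values were seen. The members and lists were chosen with earlier results of these data known. Motif direction in other choices of sites, sites without a match, copy counts and gene lengths were added after seeing the data. Alternatives are given with the limits. The result for 1 of the named promoter sites is not reported here.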

Additional observations from a re-analysis of the deposited data

How the results depend on the processing

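The 3 shares at promoters and genes, the motif share and the convergent share moved by less than their counting intervals under other overlap rules, merging within 500 bp and stricter score minimums. The number of sites and what depends on it did move. With the higher-scoring part of each list there were 787 sites, a median spacing of 1165 kb, 5.84% in clusters, a median width of 233 bp and 678 genes. With lists of equal length (2807 peaks) there were 1107 sites, 796 kb, 6.23%, 228 bp and 989 genes. Leaving out each replicate in turn gave 1968 to 3918 sites, a spacing of 221 to 434 kb, 11.2% to 19.3% in clusters, widths of 196.5 to 214.5 bp and 1687 to 3110 genes, with most sites, clusters and genes and the shortest spacing without replicate 1, and fewest sites, clusters and genes, the longest spacing and the narrowest width without replicate 3. All annotated transcripts gave 7.52% within 1 kb, 15.9% within 3 kb and 44.2% inside genes. Joining within 10 kb put 5.49% and within 50 kb 17.5% of sites in clusters. The motif level of 1% gave 68.7%. Genes with a site inside numbered 718, and within 50 kb 3960. The differences within replicates stayed positive, at 0.336 to 1.23 points for promoters and 2.34 to 7.85 for the motif.

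No paired analysis was possible because no groups of samples were compared: the samples were of 1 time point, and the differences between peaks were already taken within each replicate. The smallest p that 3 replicates allow is 0.25 in an exact sign-flip permutation test. The authors drew equal numbers of unique positions from each sample, but the lists do not give the reads behind each peak. A missing peak means only that no peak passed the caller's threshold.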
